A study of Mus musculus with 6 samples.

Results

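The Kruppel-like factors (KLF) examined here are 10 zinc-finger transcription factor genes, Klf2, Klf3, Klf4, Klf5, Klf6, Klf7, Klf8, Klf9, Klf10 and Klf13, out of 16982 genes in the count table. They were picked by gene symbol, with earlier results of these data known, and all 10 passed the filter on low counts. Their RNA was measured in bulk, by RNA-seq of 3 WT and 3 Rnf20-/- (KO) cultures of C57BL/6 mouse cells on day 3 of reprogramming. The cells were mouse embryonic fibroblasts (MEF), and all 6 cultures had received retroviruses for OCT4, SOX2, KLF4 and C-MYC. RNF20 is a ubiquitin ligase that, with RNF40, attaches ubiquitin to histone H2B. The KO cells carried floxed Rnf20 alleles and a ubiquitous, tamoxifen-inducible Cre, and 4-OH tamoxifen was used to delete the gene. The labels list every culture as untreated, and whether the WT cultures also received the drug is not stated, so drug and genotype cannot be told apart here. The labels number the replicates without saying whether they came from separate embryos or cultures, so the p-values below measure only the spread between these libraries.

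KLF proteins share a C-terminal block of zinc fingers that binds GC-rich and CACCC-type DNA, and they differ mainly in the N-terminal part that recruits other proteins. KLF2, KLF4, KLF5, KLF6 and KLF7 mostly activate transcription and can bind acetyltransferases. KLF3 and KLF8 carry a motif for the corepressor CtBP, whereas KLF9, KLF10 and KLF13 bind the corepressor Sin3. KLF4 is one of the reprogramming factors, and KLF2 and KLF5 act beside it in mouse embryonic stem cells.

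The members lie on 10 different chromosomes in GRCm38 (GENCODE M21): Klf2 at chr8:72319033-72321656, Klf3 at chr5:64803388-64832901, Klf4 at chr4:55527143-55532466, Klf5 at chr14:99298691-99315036, Klf6 at chr13:5861482-5870394, Klf7 at chr1:64029447-64122282, Klf8 at chrX:153237466-153396132, Klf9 at chr19:23141226-23168134, Klf10 at chr15:38291463-38300706 and Klf13 at chr7:63886351-63938915. All 10 are protein-coding. Exons of Klf3 overlap the antisense transcript Gm20033 and those of Klf7 overlap Gm13748 and Gm26649. The strand setting of the counting is not given in the sources used here, so reads of these partners cannot be told apart from those of Klf3 and Klf7.

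The promoters of 4 members whose RNA differed between genotypes are shown because KLF genes are themselves described as bound by KLF and SP proteins. Each line gives the 250 bases before the RefSeq start site (GRCm38.p6), read 5′ to 3′ on the strand of the gene. Capitals mark the GC box core GGGCGG and the CACCC box, on either strand (CCGCCC and GGGTG when reversed). The windows are chr4:55532476-55532725 (minus strand) for Klf4, chr13:5861239-5861488 (plus strand) for Klf6, chr19:23140976-23141225 (plus strand) for Klf9 and chr7:63938916-63939165 (minus strand) for Klf13. 
Klf4: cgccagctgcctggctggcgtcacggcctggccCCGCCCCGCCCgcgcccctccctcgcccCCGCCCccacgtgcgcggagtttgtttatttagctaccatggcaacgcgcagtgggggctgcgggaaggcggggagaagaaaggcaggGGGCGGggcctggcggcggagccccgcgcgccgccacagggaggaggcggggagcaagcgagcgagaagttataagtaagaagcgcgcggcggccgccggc
Klf6: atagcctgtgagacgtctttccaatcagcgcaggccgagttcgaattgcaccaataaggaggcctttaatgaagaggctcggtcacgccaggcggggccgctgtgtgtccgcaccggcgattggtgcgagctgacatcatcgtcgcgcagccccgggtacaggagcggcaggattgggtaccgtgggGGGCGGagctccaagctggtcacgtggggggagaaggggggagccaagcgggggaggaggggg
Klf9: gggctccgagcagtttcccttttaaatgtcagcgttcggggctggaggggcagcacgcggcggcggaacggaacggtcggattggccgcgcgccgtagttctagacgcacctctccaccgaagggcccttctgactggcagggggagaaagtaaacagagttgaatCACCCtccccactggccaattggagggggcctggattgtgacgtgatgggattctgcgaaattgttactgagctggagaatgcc
Klf13: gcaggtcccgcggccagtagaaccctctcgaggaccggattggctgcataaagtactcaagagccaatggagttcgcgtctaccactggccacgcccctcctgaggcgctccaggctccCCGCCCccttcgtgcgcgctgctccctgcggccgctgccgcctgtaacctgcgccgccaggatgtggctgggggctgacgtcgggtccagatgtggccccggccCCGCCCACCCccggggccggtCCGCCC

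RefSeq promoter entries were matched for 8 of the 10 members, and GGGCGG stood in those of 7 of the 8, against 32.7% of 32851 promoters of the same length. CACCC stood in 6 of the 8, against 52% of all promoters. The Klf4 window held 4 matches to GGGCGG, of which 1 pair overlapped, and no CACCC. In Klf13 there were 3 matches to GGGCGG and 1 to CACCC, of which 1 pair shared bases, whereas Klf6 had a single GGGCGG and Klf9 a single CACCC. Klf3 had the most, with 6 matches to GGGCGG and 5 to CACCC, in a window that runs past the GENCODE start of the gene (chr5:64803388). The windows of Klf3 (78.4% G and C), Klf4 (74%) and Klf13 (71.6%) are also richer in G and C than those of Klf6 (64.8%) and Klf9 (59.6%), and the part of base composition in these matches was not tested. Only the endogenous Klf4 gene has the Klf4 window, since the virus carries a promoter of its own.

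The libraries held 20545442 to 21746898 counts. Rnf20 stood at 107, 107 and 106 CPM (counts scaled to the library size, normalized by TMM) in WT and at 18.7, 18.5 and 16.4 in KO, or 16.8% of WT (log2 fold change -2.57, SE 0.081, adjusted p = 0.000163), and the remaining reads were not assigned to deleted or kept exons. Its partner Rnf40 had a log2 fold change of -0.02 (adjusted p = 0.889). KO replicate 3 stood apart from the other KO libraries, with a chi-square per gene of 92.4 and 101 against them, compared with 6.04 to 8.92 for all other pairs within a genotype. Transcripts of 4 Y-linked genes summed to 227 to 242 CPM in WT and 266 CPM in KO replicate 2, but to 0 and 0.0476 CPM in KO replicates 1 and 3, where 3 counts, the detection floor, equal 0.143 CPM. Of 10 fibroblast markers, 2 passed the test (Pdgfra and Thy1, both lower), and their summed level was 30335 to 33097 CPM in WT and 31976, 39856 and 21634 CPM in KO replicates 1, 2 and 3. Macrophage markers (7, of which 0 passed by edgeR and 0 had an unadjusted p under 0.05) summed to 45.3 to 90.4 CPM in WT and 75.7, 48.5 and 243 CPM in KO. Epithelial markers (7, of which Krt19 was higher and 6 did not pass) summed to 59.9 to 66.7 CPM in WT and 85.1, 59.1 and 23.7 CPM in KO. Their log2 fold changes had a median of -0.47, with 5 negative and 2 positive. Epcam and Krt18 stood at 46.6% and 40.5% of WT, with unadjusted p of 0.0252 and 0.0238 by edgeR. Endothelial markers summed to 48.7 to 59.0 CPM in WT and 67.3, 54.0 and 32.3 CPM in KO, nearly all from Tek, while the defining Pecam1 and Cdh5 were at most 0.525 CPM and Emcn was at 0 in all but 1 library. The part of these markers in the results below was not tested. In bulk RNA, fewer cells that express a gene and less RNA per cell cannot be told apart.

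Whether loss of RNF20 changed KLF transcripts was asked with edgeR's quasi-likelihood test, with p-values adjusted over 13386 genes and a threshold of 0.05. Of the 10 members, 3 were lower in KO (Klf4, Klf9 and Klf13), 2 were higher (Klf6 and Klf7) and 5 did not pass. Over all genes tested, 33% passed, 16.6% lower and 16.4% higher. The members' count is to be read against that background. The libraries of the genotypes did not overlap for 8 of the 10 members, against 54.8% of all genes. The median log2 fold change of the members was -0.33, compared with -0.00032 for all genes tested, and 8 of the 10 were negative. None of the members passed a stricter rule, which 3.59% of genes passed. It asked for an adjusted p under 0.01, a change beyond 2-fold and a mean FPKM over 1. At an adjusted p under 0.01 alone, Klf13 and Klf6 remained, against 9.88% of genes.

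**Figure D1:**
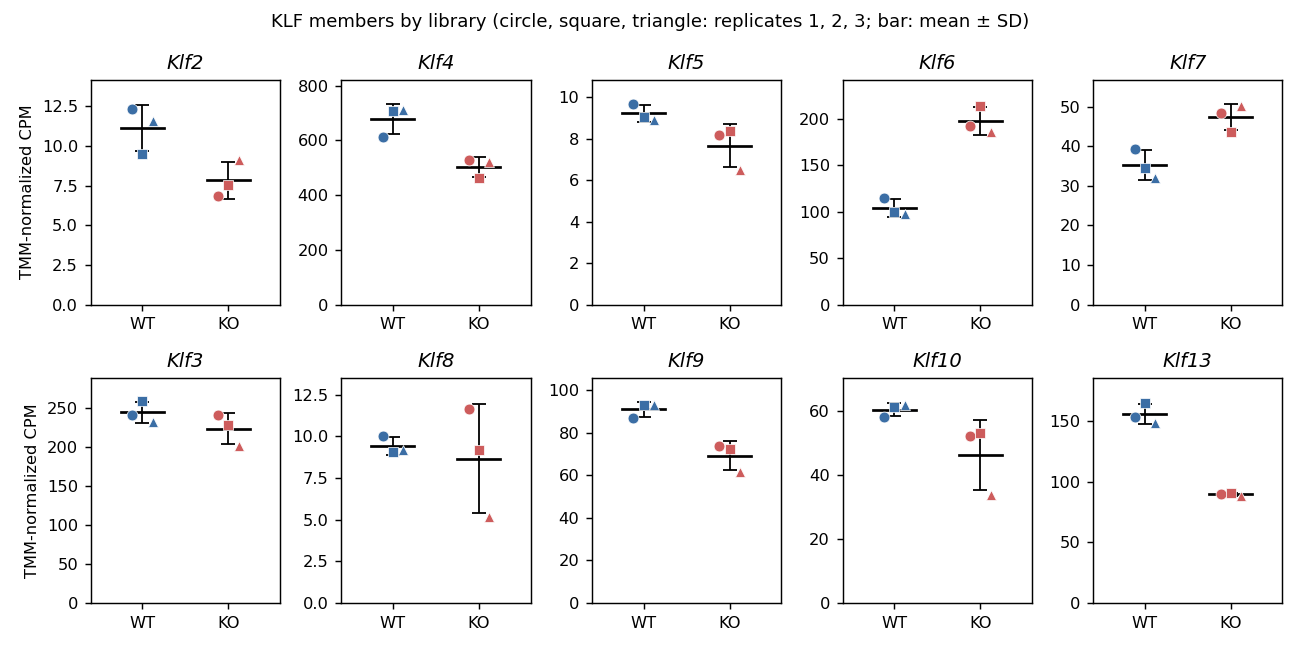
TMM-normalized CPM of each member (vertical axis, from 0, on a scale of its own per gene) in the WT (blue) and KO (red) libraries, with circles, squares and triangles for replicates 1, 2 and 3, and bars for the mean ± SD of 3 libraries. The Klf6 and Klf13 libraries of the genotypes are far apart, and in Klf8 and Klf10 the triangle of KO replicate 3, at 5.14 and 33.8 CPM, lies well under the other libraries.

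Among the activators, Klf6 rose and had the largest change of the 10 members in either direction. KLF6 is an early-response factor that was described as an activator of the cell cycle inhibitor gene Cdkn1a. Its level was 115, 99.8 and 97.8 CPM in WT and 193, 214 and 186 CPM in KO. Every KO library was above every WT library. The means were 104 ± 9.32 and 198 ± 14.9 CPM (SD, n = 3 each), and the log2 fold change was 0.92 (SE 0.0946, 95% interval 0.70 to 1.15, adjusted p = 0.00315 by edgeR). Each KO library alone stood 0.84 to 1.04 above the WT mean on the log2 scale, KO replicate 2, which has Y-linked transcripts as the WT libraries do, being the highest. With any 1 of the 6 libraries left out, the log2 fold change was 0.87 to 0.998 and passed the test.

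Klf7, the closest relative of Klf6 and known for its role in neurons, also rose. It was measured at 39.3, 34.6 and 31.9 CPM in WT and at 48.4, 43.6 and 50.01 CPM in KO. The genotypes did not overlap, although WT replicate 1 and KO replicate 2 came close. From 35.3 ± 3.76 to 47.3 ± 3.33 CPM (SD, n = 3 each), the log2 fold change was 0.42 (SE 0.104, adjusted p = 0.0239 by edgeR). The call was lost without WT replicate 2 (adjusted p = 0.0893), WT replicate 3 (0.0894) or KO replicate 1 (0.0565), with the direction kept.

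Klf4 was the most abundant member and was lower in KO. Counts for Klf4 hold the reads of both the endogenous gene and the retroviral transgene, which were not separated. Its level was 613, 709 and 711 CPM in WT and 529, 462 and 521 CPM in KO. All KO libraries lay under the lowest WT library, and the KO mean of 504 ± 36.3 CPM was 74.4% of the WT mean of 678 ± 56.0 CPM (SD, n = 3 each). The log2 fold change was -0.43 (SE 0.0947, 95% interval -0.65 to -0.20, adjusted p = 0.0176 by edgeR). Without WT replicate 2, WT replicate 3 or KO replicate 2 it lay between -0.40 and -0.36 and missed the threshold (adjusted p = 0.0735, 0.0758 and 0.0527). The FPKM values deposited by the authors put Klf4 at 504 ± 89.5 in WT and 317 ± 23.0 in KO, or 62.8% of WT, a deeper drop than in the counts.

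**Figure D2:**
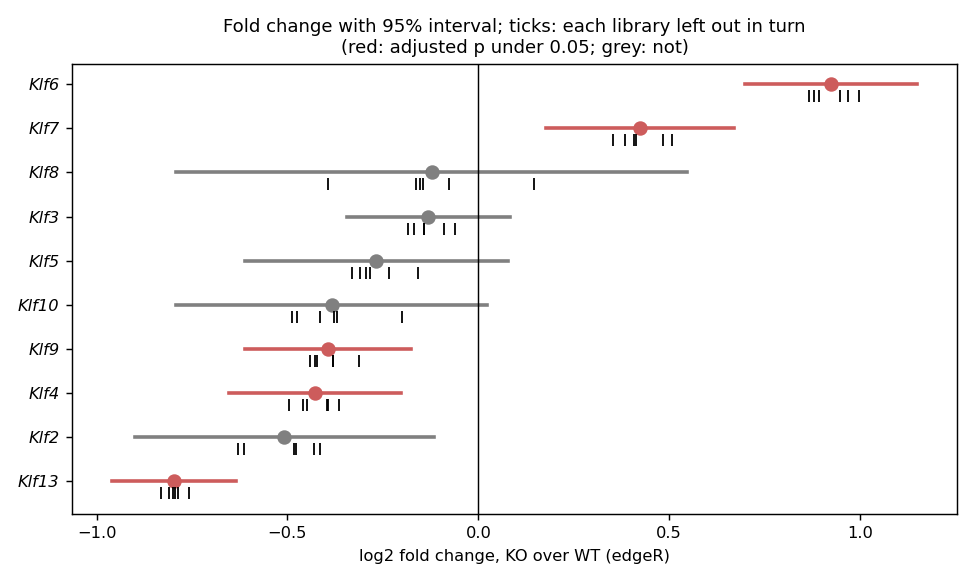
Log2 fold change of KO over WT (horizontal axis) for each member, with the 95% interval as a line, red where the adjusted p was under 0.05 and grey where not, and with short ticks for the values obtained when each of the 6 libraries was left out. The ticks of Klf6 and Klf13 stay close to their points, whereas those of Klf8 run from -0.39 to 0.15 across 0.

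Klf2 and Klf5, the other KLF genes tied to the pluripotent state, were expressed at a low level and did not pass the test. Klf2 stood at 12.3, 9.49 and 11.6 CPM in WT and at 6.83, 7.55 and 9.10 CPM in KO. All KO values were under the WT values, the closest pair being KO replicate 3 and WT replicate 2. The log2 fold change of Klf2 was -0.51 (SE 0.165, 95% interval -0.90 to -0.12, adjusted p = 0.0540 by edgeR), and without KO replicate 3 it was -0.63 and passed (adjusted p = 0.00633). Klf5 was at 9.70, 9.07 and 8.92 CPM in WT and at 8.16, 8.36 and 6.48 CPM in KO. These did not overlap either, but the log2 fold change of -0.27 (SE 0.145, 95% interval -0.61 to 0.08) had an adjusted p of 0.193. Without KO replicate 3 the log2 fold change of Klf5 was -0.16 (adjusted p = 0.339).

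Neither of the CtBP-binding repressors passed the test. Klf3, a repressor studied in erythroid cells and fat tissue, had the highest mean CPM after Klf4, not scaled to gene length. It was at 241, 259 and 233 CPM in WT and 241, 228 and 201 CPM in KO. The genotypes overlapped, and the log2 fold change was -0.13 (SE 0.0894, 95% interval -0.34 to 0.08, adjusted p = 0.291 by edgeR). Klf8, described as a driver of epithelial-to-mesenchymal transition, was at 10.03, 9.07 and 9.16 CPM in WT and at 11.6, 9.16 and 5.14 CPM in KO. The WT libraries and KO replicate 2 were close together, while KO replicate 1 lay above and KO replicate 3 below all of them. With an interval from -0.79 to 0.55 around a log2 fold change of -0.12 (adjusted p = 0.759), even the direction of Klf8 was unresolved, and without KO replicate 3 it was 0.15.

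All 3 Sin3-binding repressors had lower means in KO, and 2 of them passed. Klf13, described in T cells as an activator of Ccl5 and elsewhere as a repressor, fell with the lowest adjusted p of the members. It was measured at 153, 165 and 149 CPM in WT and at 89.6, 90.5 and 88.4 CPM in KO. The KO libraries were nearly equal to each other, KO replicate 3 included, and lay far under every WT library. The mean fell from 156 ± 8.25 to 89.5 ± 1.01 CPM (SD, n = 3 each), which is 57.5% of WT (log2 fold change -0.80, SE 0.0679, 95% interval -0.96 to -0.64, adjusted p = 0.00202 by edgeR). Whichever library was dropped, it stayed between -0.83 and -0.76 on the log2 scale and passed the test. KO replicate 2, the KO library with Y-linked transcripts, was -0.78 from the WT mean on the log2 scale. A fit with a term for these transcripts rests its genotype contrast on that library alone. Klf13 had a log2 fold change of -0.78 in that fit and lost its call, as most genes called in the main fit did.

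Klf9, a gene induced by glucocorticoids and thyroid hormone, was lower as well. Its level was 87.0, 92.9 and 93.0 CPM in WT and 73.9, 72.3 and 61.4 CPM in KO. All KO libraries were under the WT libraries, with KO replicate 3 the lowest. The KO mean was 76.1% of WT (log2 fold change -0.39, SE 0.0911, 95% interval -0.61 to -0.18, adjusted p = 0.0200 by edgeR). With 1 WT library left out, whichever it was, the adjusted p was 0.0549 to 0.0790.

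Klf10, an early gene of the TGF-beta response, did not pass. It stood at 58.2, 61.4 and 62.0 CPM in WT and at 52.2, 53.1 and 33.8 CPM in KO. The genotypes did not overlap, but KO replicate 3 was far under the other KO libraries, at -0.84 from the WT mean on the log2 scale against -0.21 and -0.19 for KO replicates 1 and 2. The log2 fold change was -0.38 (SE 0.171, 95% interval -0.79 to 0.02, adjusted p = 0.127 by edgeR). Without KO replicate 3 it was smaller, -0.20, and passed (adjusted p = 0.0235).

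KO replicate 3 bears unequally on the members. It was the lowest of the 6 libraries for Klf3, Klf5, Klf8, Klf9, Klf10 and Klf13. Without it, 5 members were lower in KO (Klf2, Klf4, Klf9, Klf10 and Klf13) and 2 were higher, in a fit where 48.1% of genes passed. Without WT replicate 2 or WT replicate 3, only Klf13 (lower) and Klf6 (higher) passed, with 11.9% and 10.3% of genes. A fit with a term for Y-linked transcripts rests its genotype contrast on KO replicate 2 alone, since KO replicates 1 and 3 lack these transcripts. Most calls of the main fit were lost there, over all genes tested and not only among the members. The log2 fold change of Klf6 in that fit was 1.04.

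To compare the members with each other, CPM values were divided by gene length in kb. For Klf4, whose counts include viral reads, this is the length listed for the gene. In WT, Klf4 led at 218 ± 18.0 CPM per kb, followed by Klf3 at 46.8 ± 2.60, Klf6 at 24.7 ± 2.21 and Klf13 at 24.3 ± 1.29. Klf10 (19.9 ± 0.673) and Klf9 (16.5 ± 0.629) came next, then Klf2 (5.24 ± 0.689), Klf7 (4.603 ± 0.491), Klf5 (2.73 ± 0.122) and Klf8 (1.17 ± 0.0664 CPM per kb, SD, n = 3). The ranges of the libraries overlapped between Klf6 and Klf13 and between Klf2 and Klf7, and the other 7 pairs of neighbours were apart. By the authors' FPKM in WT those pairs were apart, whereas Klf13 overlapped with Klf10 and Klf10 with Klf9.

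In KO, Klf4 still led, at 162 ± 11.7 CPM per kb. Klf6 (46.9 ± 3.54) now overlapped with Klf3 (42.8 ± 3.83) in place of Klf13 (13.995 ± 0.158). Klf10 (15.2 ± 3.57) ranged from 11.1 to 17.4 and overlapped with both Klf13 and Klf9 (12.5 ± 1.23, from 11.1 to 13.4), whereas Klf13 and Klf9 were apart. Klf7 (6.18 ± 0.435), Klf2 (3.69 ± 0.547), Klf5 (2.27 ± 0.306) and Klf8 (1.08 ± 0.409) followed, each apart from the next. By the authors' FPKM the KO order of the low members was less clear, with 3 pairs of neighbours apart against 7 in CPM per kb. Klf8 in particular was at 2.07 ± 0.204 FPKM in WT and 2.88 ± 1.97 in KO, which is 139% of WT, whereas its CPM was 91.9% of WT.

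**Figure D3:**
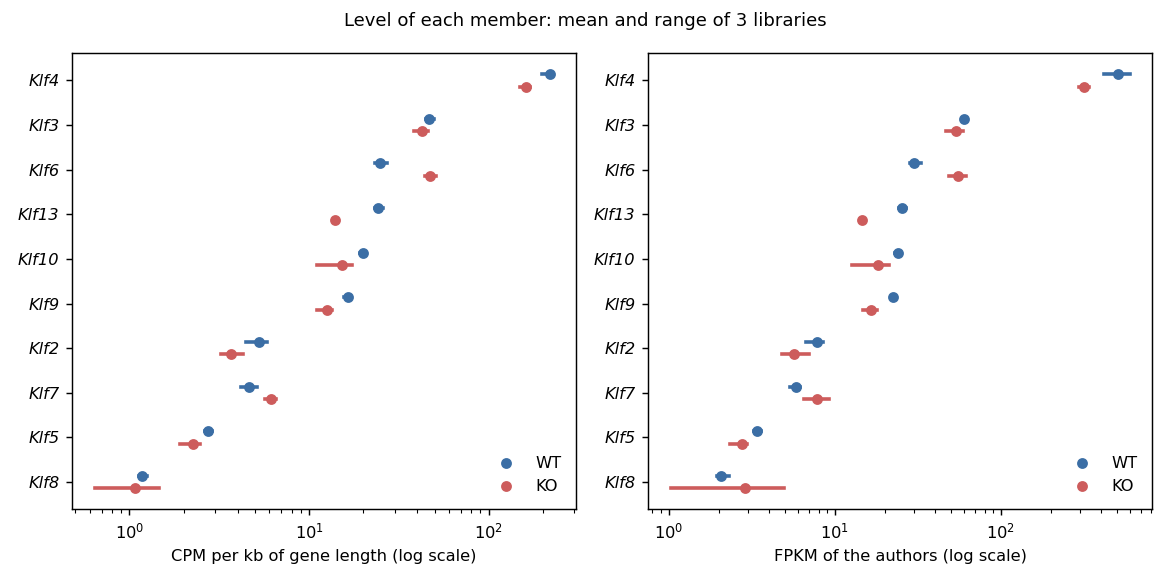
Level of each member on a log axis, as CPM per kb of gene length (left) and as the authors' FPKM (right), with points for the mean and lines for the range of the 3 WT (blue) or 3 KO (red) libraries. Klf4 stands far to the right on both scales, and the KO point of Klf6 moves up to that of Klf3 while the KO point of Klf13 moves down to that of Klf10.

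The ratios between members differed between genotypes. That of Klf6 to Klf13 in CPM per kb was 1.14, 0.919 and 0.997 in the WT libraries and 3.26, 3.59 and 3.19 in the KO libraries. The values of the genotypes are far apart and include KO replicate 3, which is the lowest of the KO libraries by a small margin. The ratio of Klf4 to Klf6 went from 8.93 ± 1.46 to 3.49 ± 0.485 and that of Klf3 to Klf6 from 1.91 ± 0.200 to 0.914 ± 0.0822 (SD, n = 3 each). These ratios were formed from members whose changes had been seen and carry no test.

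The 10 members summed to 345, 377 and 371 CPM per kb in WT and to 320, 301 and 300 in KO, and all KO sums were under the WT sums. Klf4, with its viral reads included, made up 59.9 ± 2.33% of the sum in WT and 52.9 ± 3.24% in KO, and Klf6 6.81 ± 0.942% and 15.3 ± 1.41%. The sums and shares are therefore not those of the endogenous genes alone. Without Klf4 the sums were 146 ± 3.83 CPM per kb in WT and 145 ± 10.9 in KO and overlapped. The rise of Klf6 stood beside lower KO means of Klf13, Klf10, Klf3 and Klf9, of which Klf10 and Klf3 did not pass the test.

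Among the other KLF and SP genes, 15 of 16 listed were in the count table and 11 could be tested; 2 were lower in KO, 1 was higher and 8 did not pass, with a median log2 fold change of -0.27. Sp3, a broadly expressed factor that binds the same GC boxes, was at 142, 144 and 140 CPM in WT and at 116, 115 and 95.3 CPM in KO (log2 fold change -0.39, SE 0.0919, adjusted p = 0.0219 by edgeR). Sp4, its relative best known in neurons, was at 11.3, 9.49 and 10.01 CPM in WT and at 5.58, 5.94 and 6.62 CPM in KO (log2 fold change -0.76, SE 0.140, adjusted p = 0.0103). Both were lower in every KO library than in any WT library. The genotypes did not overlap for 7 of the 11 genes tested, against 54.8% of all genes. Sp6, a factor of tooth and skin epithelium, was low throughout, at 1.43, 0.997 and 1.38 CPM in WT and 2.63, 1.99 and 3.95 CPM in KO (log2 fold change 1.17, SE 0.335, adjusted p = 0.0377). Exons of Sp3 and Sp6 overlap antisense transcripts. Without KO replicate 3, 4 of the 11 were lower, and without any 1 of the WT libraries 1 was lower and 0 higher. Over all genes tested, 48.1% passed without KO replicate 3 and 10.3% to 14.3% without 1 WT library.

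Of 14 proteins that bind or modify KLF proteins, 2 were lower, 2 were higher and 10 did not pass, with a median of -0.07. Ctbp1, a CtBP corepressor gene, went from 216 ± 8.73 to 170 ± 4.44 CPM (log2 fold change -0.35, SE 0.0657, adjusted p = 0.0110 by edgeR), and Sin3a, a Sin3 scaffold gene, from 89.0 ± 3.25 to 69.2 ± 8.34 CPM (-0.36, SE 0.102, adjusted p = 0.0358). Their relatives on the list, Ctbp2 (0.17, adjusted p = 0.162) and Sin3b (0.21, adjusted p = 0.0508), did not pass. Both were higher in every KO library than in any WT library. The ubiquitin ligase genes Wwp1 and Fbxw7, whose products are described as targeting KLF5 for degradation, rose from 66.3 ± 2.19 to 87.8 ± 1.85 CPM (0.41, SE 0.0652, adjusted p = 0.00747) and from 34.1 ± 1.32 to 44.8 ± 2.02 CPM (0.39, SE 0.0752, adjusted p = 0.0117). The libraries of the genotypes did not overlap for 11 of the 14, the 4 that passed among them, against 54.8% of all genes. Wwp1 overlaps Gm12353 on the other strand, and Sin3a overlaps antisense transcripts. Without KO replicate 3, 4 of the 14 were lower and 6 higher, in a fit where 48.1% of all genes passed. Without WT replicate 3, 0 were lower and 1 higher, with 10.3% of all genes.

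Upstream of the KLF genes, 18 genes of the ERK5-MEF2, glucocorticoid, TGF-beta and LIF-STAT3 routes were tested; 1 was lower, 1 was higher and 16 did not pass, with a median of 0.02. Mef2a, a factor that drives Klf2 and Klf4 downstream of ERK5, was at 124, 151 and 120 CPM in WT and at 185, 163 and 181 CPM in KO (log2 fold change 0.43, SE 0.108, adjusted p = 0.0263 by edgeR), and its exons overlap Lysmd4 on the other strand. Lifr, the LIF receptor, was at 53.0, 54.4 and 48.3 CPM in WT and at 43.1, 36.2 and 42.1 CPM in KO (-0.36, SE 0.0954, adjusted p = 0.0304). Without KO replicate 3, 6 upstream genes were lower and 4 higher, in a fit where 48.1% of all genes passed. Without WT replicate 1 or 3 no upstream gene passed in either direction, with 14.3% and 10.3% of all genes.

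Of 28 genes described as targets of KLF proteins, 24 could be tested; 3 were lower, 9 were higher and 12 did not pass. The median log2 fold change was 0.32, and its relation to the changes of the members was not tested. The cell cycle inhibitor gene Cdkn1a, described as a target of KLF4 and KLF6, was at 479, 439 and 477 CPM in WT and at 1186, 1180 and 1508 CPM in KO (log2 fold change 1.47, SE 0.119, adjusted p = 0.00182 by edgeR). Ccnd1, the cyclin D1 gene, was at 433, 375 and 379 CPM in WT and at 1093, 923 and 1020 CPM in KO (1.36, SE 0.100, adjusted p = 0.00178). Both rose in every KO library, although 1 encodes a brake and the other a driver of the cell cycle.

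Acta2, the smooth muscle actin gene, rose from 492 ± 35.6 to 1155 ± 229 CPM (log2 fold change 1.23, SE 0.151, adjusted p = 0.00394 by edgeR), whereas Cdkn1b, another cell cycle inhibitor gene, fell from 82.4 ± 3.34 to 41.6 ± 5.45 CPM (-0.98, SE 0.109, adjusted p = 0.0034). The other lower targets, named after their values were seen, were Tsc22d3 (-0.87, adjusted p = 0.00405) and Fkbp5 (-0.81, adjusted p = 0.0400). Fkbp5 was at 43.0, 41.0 and 22.1 CPM in KO replicates 1, 2 and 3, so that KO replicate 3 was far under the others. Nothing in the RNA-seq shows whether a KLF protein was bound at any of these genes. The exons of Cdkn1a and Ccnd1 overlap antisense or neighbouring transcripts on the other strand.

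**Figure D4:**
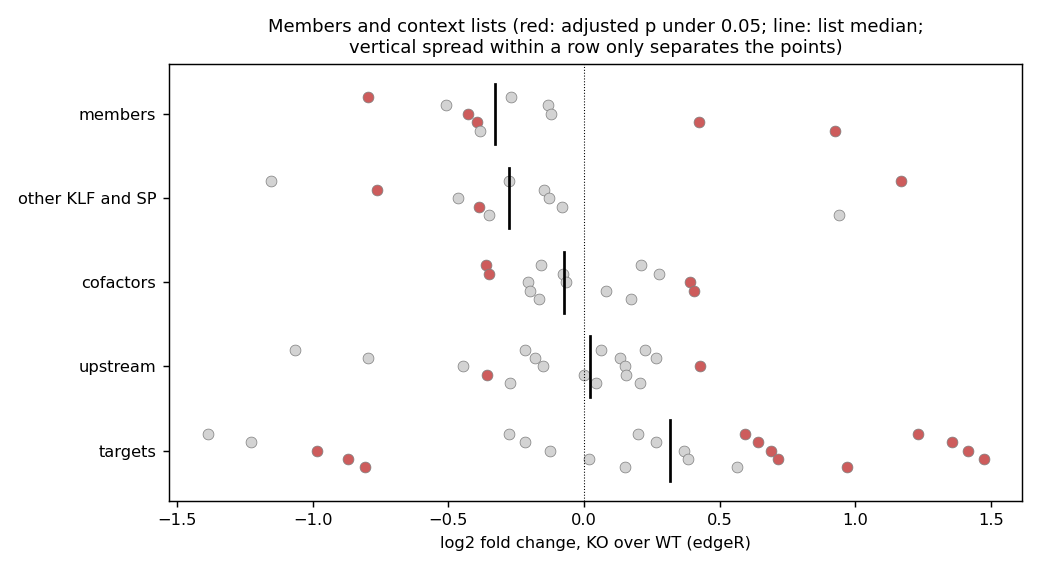
Log2 fold change of KO over WT (horizontal axis) for the members and for the lists of other KLF and SP genes, cofactors, upstream genes and targets, with 1 point per tested gene, red where the adjusted p was under 0.05, and a line at the median of each list. The median of the members is at -0.33 and that of the targets at 0.32, and each list has points on both sides of 0.

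The genes with a profile most like that of Klf13, the member with the lowest adjusted p, were sought over the 6 libraries, with each log2 CPM profile centred on its own WT mean. Zfp367 was nearest, with a root mean square difference of 0.0286 on the log2 scale, at 17.1, 17.6 and 16.7 CPM in WT and 10.1, 9.92 and 9.72 CPM in KO. Apex1, which encodes a DNA repair endonuclease, differed by 0.0518, and Acot1, a thioesterase gene, by 0.0523. Acot1 has near-identical relatives among the acyl-CoA thioesterase genes, so its counts are uncertain, and exons of Zfp367 and Apex1 overlap transcripts on the other strand. The log2 fold changes of Zfp367, Apex1 and Acot1 were -0.78, -0.81 and -0.81. Being chosen for likeness to Klf13, they carry no evidence of their own.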

How the data were processed

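The RNA-seq libraries of 3 WT and 3 KO samples were analysed, grouped by the genotype in the sample labels. The authors made stranded, poly(A)-selected libraries, aligned the reads to GRCm38/mm10 with HISAT2 2.1.0 and computed FPKM with Cufflinks 2.1.1. They deposited raw counts per gene (whole numbers, not normalized) with gene lengths for 16982 genes, and FPKM values for 12633 genes. The program that made the counts is not given in the sources used here. The deposited log2 fold changes and p-values (FDR) of the authors were not used.

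Counts were analysed with R 4.3.3 and edgeR 4.0.16: TMM normalization, filterByExpr at its defaults (13386 genes kept), quasi-likelihood test of KO against WT without covariates, and Benjamini-Hochberg adjustment over all genes kept. A gene passed at an adjusted p under 0.05, whatever its fold. CPM values use TMM-normalized library sizes, and log2 CPM a prior count of 2. The common dispersion was 0.0353. The floor of 3 counts was 0.142 to 0.143 CPM and covers counting error only. Fold changes are coded KO over WT. Whether replicate numbers pair the libraries was checked by correlating deviations from the group means. No sign of pairing was seen, but with 3 libraries per genotype the check cannot exclude it. The scripts were tested on simulated counts.

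The members, lists and tests were chosen with earlier results of these data known. Named were all members, Rnf20 and Rnf40, the cell type markers by list, at most the 4 genes of each context list with the lowest adjusted p that passed (and, after their values were seen, the remaining lower targets), and the 3 genes with the profile nearest to that of the member with the lowest adjusted p. Ctbp2 and Sin3b were also named after their values were seen. Positions came from GENCODE M21, and promoters from RefSeq (GRCm38.p6), searched over 250 bases before the start. The Klf7 window (1 match to GGGCGG and 3 to CACCC) lies partly in exons of GENCODE transcripts and is not shown. The last bases of the Klf6 window, which is shown, also lie past the GENCODE start of that gene (chr13:5861482). Windows of Klf2, Klf3 and Klf8, which were counted but are not shown, also lie partly or wholly past the GENCODE starts of these genes. Alternatives were RLE size factors, no filter, a filter at 1 CPM in 3 libraries, DESeq2 1.42.0, the replicate number as a block, a term for Y-linked transcripts, an adjusted p under 0.01, each library left out, the authors' FPKM for levels and, chosen after seeing the data, limma 3.58.1 on log2(FPKM + 1).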

Additional observations from a re-analysis of the deposited data

How the results depend on the processing

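With 3 libraries per genotype, 1 of which stands apart, most calls near the threshold depended on the setting. Over 13 alternatives for each of the 10 members, 108 log2 fold changes kept direction and side of the threshold, 17 lost the call, 3 gained it and 2 changed sign, both for Klf8 (0.15 without KO replicate 3, against -0.39 without KO replicate 1, and 0.21 by limma on log2(FPKM + 1)); the cause was not tested. Klf6 kept its call in 13 of 13 alternatives, Klf13 in 12, Klf4 and Klf9 in 8 and Klf7 in 7. By DESeq2, Klf2 also passed (adjusted p = 0.0399), and by limma on FPKM Klf7 did not (adjusted p = 0.0914).

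Left out 1 at a time, the libraries gave 1 to 5 members lower and 1 to 2 higher, 1 to 4 other KLF and SP genes lower and 0 to 1 higher, 0 to 4 cofactors lower and 1 to 6 higher, 0 to 6 upstream genes lower and 0 to 4 higher, and 2 to 4 targets lower and 7 to 10 higher. Over all genes tested, 10.3% to 48.1% passed in these fits. Without WT replicate 2 or 3, 1 member was lower and 1 higher, in fits where 11.9% and 10.3% of all genes passed. At an adjusted p under 0.01, 1 member was lower and 1 higher, no other KLF or SP gene passed in either direction (0 and 0), 0 cofactors were lower and 1 higher, and 0 upstream genes passed either way. DESeq2 called 4 cofactors higher, and 4 upstream genes lower and 3 higher, with 38.1% of all genes called.

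With the term for Y-linked transcripts, KO replicate 2 was the only KO library left in the genotype contrast. Most calls of the main fit were lost over all genes tested. The log2 fold changes in that fit were 1.04 for Klf6, -0.78 for Klf13, -0.55 for Klf4, -0.33 for Klf9 and 0.31 for Klf7. The deviations from the group means gave no sign that the replicate numbers pair the libraries (correlations of same-numbered libraries -0.066, 0.037 and 0.011). WT replicate 1 correlated best with KO replicate 3. With the replicate block, 1 member was lower (Klf13) and 1 higher (Klf6), Klf4, Klf7 and Klf9 having adjusted p-values of 0.0533, 0.0503 and 0.0518; 0 other KLF and SP genes were higher, 1 cofactor was lower and 0 upstream genes passed either way, with 2875 genes called against 4413 without the block. By the authors' FPKM, 3 pairs of neighbours in the KO order of levels were apart, against 7.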
